A study of Homo sapiens with 6 samples.

Results

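Genes of the aldehyde dehydrogenase (ALDH) family were followed through the knockdown of *SWINGN* in H226 cells. They are *ALDH1A2*, *ALDH1A3*, *ALDH1B1*, *ALDH2*, *ALDH3A2*, *ALDH3B1*, *ALDH7A1*, *ALDH9A1* and *ALDH18A1*, that is 9 of the 17222 gene names in the deposited count table, and they were picked by gene name after their reads in these same libraries were known. H226 is an established human cell line labelled as squamous lung carcinoma. The cells were transfected either with ASO_CTRL, a control antisense oligonucleotide, or with ASO_LINC#3, an antisense oligonucleotide against the lncRNA *SWINGN* (LINC00565), and both groups were collected after 48 hours. Each group has 3 RNA-seq libraries, both groups went through the same transient transfection, and the knockdown rests on 1 cell line and 1 oligonucleotide. The *SWINGN* transcript was not analysed here, so its level in these libraries was not checked. The labels do not say whether the replicates are separate cultures, so the spread between libraries may be technical.

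Aldehyde dehydrogenases oxidise aldehydes to carboxylic acids with NAD or NADP as the electron acceptor. Different members take different substrates, so the family reaches from the making of retinoic acid to the clearing of lipid peroxidation products, the breakdown of lysine and amines, and the synthesis of proline. Several members are used as markers of progenitor-like or drug-tolerant cells in lung and other carcinomas.

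In short, 4 of the 9 genes were lower in every ASO_LINC#3 library than in every ASO_CTRL library, *ALDH1A2*, *ALDH3A2*, *ALDH3B1* and *ALDH7A1*. *ALDH9A1* was the 1 gene that was higher in every knockdown library, by a small amount, and the other 4 genes overlapped between the groups. The groups thus did not overlap in 5 of the 9 genes, where 36.1% of all 14660 genes tested did not, 17.3% with the knockdown libraries below and 18.7% with them above. Since the 9 genes were chosen with these values in view, their differences are given as a description and carry no test.

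Reads counted on genes ranged from 3686828 to 10546786 per library, and ASO_LINC#3 replicate 3 had the fewest. Levels are given in CPM, the usual library-scaled read count, that is the reads of a gene scaled to the reads counted on genes in its library and by TMM. Of 8 squamous markers, *TP63*, *KRT13*, *KRT14*, *DSG3*, *PKP1* and *SOX2* are not among the names analysed here. *KRT6A* had at most 1 read in each control library and from 4 to 14 after knockdown, and was not tested. *KRT5* had 94.4, 117 and 98.2 CPM in the controls and 66.6, 62.6 and 77.8 CPM after knockdown. It was lower in every knockdown library without being called (log2 fold change −0.58, adjusted p = 0.0192 by edgeR). Simple epithelial and mesothelial markers were abundant, with a summed level of 12405 to 13475 CPM in the controls and 7312 to 12756 CPM after knockdown for the 8 of 9 that are in the table. The keratins *KRT7*, *KRT8*, *KRT18* and *KRT19* were low in ASO_LINC#3 replicates 1 and 2 and near the controls in replicate 3, and *CALB2*, calretinin, fell from 601 ± 91.7 to 154 ± 47.6 CPM (SD, n = 3 per group, adjusted p = 0.000195 by edgeR). It was the 1 gene of these 8 that was called, and *MSLN*, mesothelin, and *WT1* overlapped between the groups, with log2 fold changes of 0.06 and −0.32. *UPK3B* was lower in every knockdown library without being called (log2 fold change −0.92, adjusted p = 0.0104 by edgeR). Of these 8 log2 fold changes, 7 were below 0 and 1 was above. Of 8 blood and endothelial markers, 2 are in the table, *CD14* and *CD68*. Their summed level was 2.56 to 3.61 CPM in the controls and 3.53 to 8.68 CPM after knockdown. *CD14* overlapped between the groups. *CD68*, at 8 to 24 reads per library, was higher in every knockdown library without being called (log2 fold change 1.54, adjusted p = 0.0265 by edgeR). The part of a change in cell state in the values that follow was not tested, and in bulk RNA fewer cells with a transcript cannot be told apart from less transcript per cell.

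A set of 3 promoters is shown because they belong to the gene with the largest difference, *ALDH3B1*, and to the pair of retinoic acid enzymes, of which *ALDH1A2* was lower and *ALDH1A3* overlapped between the groups. Each is the 250 bases before the transcription start that coincides with the start of the canonical GENCODE transcript, read 5′ to 3′ on the gene's own strand, from RefSeq on GRCh38.p14. Capitals mark the letters ACGTG or GCGTG on either strand, the core of a hypoxia response element. Of the 2 forms, ACGTG but not GCGTG also lies within the CACGTG box.
ALDH3B1, chr11:68010077-68010326, plus strand: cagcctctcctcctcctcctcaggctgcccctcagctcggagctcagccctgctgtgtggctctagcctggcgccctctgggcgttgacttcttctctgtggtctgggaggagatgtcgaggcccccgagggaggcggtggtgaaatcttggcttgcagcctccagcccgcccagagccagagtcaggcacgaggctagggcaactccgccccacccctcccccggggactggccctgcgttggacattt
ALDH1A2, chr15:58065712-58065961, minus strand: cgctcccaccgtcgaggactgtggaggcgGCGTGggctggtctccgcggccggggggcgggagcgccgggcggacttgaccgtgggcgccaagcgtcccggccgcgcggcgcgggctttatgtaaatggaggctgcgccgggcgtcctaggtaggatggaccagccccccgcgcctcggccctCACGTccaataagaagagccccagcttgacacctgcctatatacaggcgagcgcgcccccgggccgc
ALDH1A3, chr15:100879581-100879830, plus strand: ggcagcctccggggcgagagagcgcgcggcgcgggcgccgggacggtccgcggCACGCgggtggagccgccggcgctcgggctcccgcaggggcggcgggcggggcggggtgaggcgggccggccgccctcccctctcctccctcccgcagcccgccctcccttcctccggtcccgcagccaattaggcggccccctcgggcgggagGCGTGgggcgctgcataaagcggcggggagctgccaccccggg
Each of these sequences has 1 match in the GRCh37 genome, at the same gene. The *ALDH3B1* window holds 11 CpG dinucleotides at a GC content of 66.8%, whereas the *ALDH1A2* window holds 33 at 72.8% and the *ALDH1A3* window 38 at 82.4%. The capital letters occur 2 times in each of the *ALDH1A2* and *ALDH1A3* windows and not in that of *ALDH3B1*, and 43.2% of all 35116 promoter windows of this length hold at least 1. Windows not shown, also at the canonical start, hold 3 matches for *ALDH3A2*, 4 for *ALDH18A1*, 1 for *ALDH1B1* and 0 for *ALDH7A1* and *ALDH9A1*. The matches thus did not sort by the direction of change. The AP-1 letters TGANTCA (in 6.57% of all windows), the antioxidant response element letters TGACNNNGC (10.9%, and able to overlap AP-1) and the CHOP-ATF4 letters TGATGNAA (3.14%) were searched on both strands and are in none of the 11 windows that RefSeq gives for 8 of the 9 genes. Such matches describe letters in a window and not a site in use.

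*ALDH1A2* and *ALDH1A3* make retinoic acid from retinal, the last step in the synthesis of this nuclear receptor ligand, and per transcript length they are the most abundant of the 9. On GRCh37, *ALDH1A2* occupies chromosome 15 from 58245622 to 58790065 on the minus strand. It had 431, 431 and 402 CPM in ASO_CTRL replicates 1, 2 and 3, and 293, 282 and 306 CPM in ASO_LINC#3 replicates 1, 2 and 3. All knockdown libraries were below all controls, and the libraries of each group lay close together, with a coefficient of variation of 3.95% in ASO_CTRL and 4.01% in ASO_LINC#3. The means were 421 ± 16.6 and 294 ± 11.8 CPM (SD, n = 3 in each group), the latter 0.697 of the control level, and the fitted log2 fold change was −0.52 (standard error 0.11). Its locus also carries *ALDH1A2-AS1*, *AQP9* and *LIPC* on the opposite strand, and that of *ALDH1A3* carries *ALDH1A3-AS1*. Likewise *ALDH3A2* has *SLC47A2* and *ALDH3B1* a lncRNA on the opposite strand, and *ALDH2* overlaps a protein-coding gene on its own strand. None of these overlapping genes is among the names analysed here. Without a stated strand setting, reads from the opposite strand cannot be told apart from those of the ALDH gene.

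*ALDH1A3* lies on the plus strand of the same chromosome from 101417919 to 101456831 and was the most abundant of the 9 genes per transcript length. Its levels were 2397, 2163 and 2349 CPM in the controls and 2807, 2135 and 1939 CPM after knockdown. The groups overlapped, since 1 knockdown library was above all controls and the other two were below them. The means were 2303 ± 124 and 2294 ± 455 CPM (SD, n = 3 in each group), so the spread between libraries was 19.8% of the mean in ASO_LINC#3 against 5.37% in ASO_CTRL. The fitted log2 fold change was −0.01 (standard error 0.15), a value whose sign changed between alternative fits. The ratio of *ALDH1A3* to *ALDH1A2* CPM was 5.56, 5.02 and 5.84 in the controls and 9.58, 7.57 and 6.35 after knockdown. It was thus higher in every knockdown library, most in replicate 1 and least in replicate 3.

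*ALDH3A2* and *ALDH3B1* act on lipid aldehydes. *ALDH3A2* encodes the fatty aldehyde dehydrogenase that is mutated in Sjögren-Larsson syndrome, and *ALDH3B1* a membrane-associated enzyme that oxidises medium and long chain aldehydes from lipid peroxidation. *ALDH3B1*, on the plus strand of chromosome 11 from 67776048 to 67796749, had 63.8, 93.3 and 73.4 CPM in the controls and 22.0, 24.8 and 39.0 CPM after knockdown. Every knockdown library was below every control, and ASO_LINC#3 replicate 3 was the nearest to them. The mean went from 76.8 ± 15.0 to 28.6 ± 9.12 CPM (SD, n = 3 in each group), 0.373 of the control level. The fitted log2 fold change was −1.44 (standard error 0.22), and 1.19% of all genes tested had a lower one.

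*ALDH3A2*, on the plus strand of chromosome 17 from 19551449 to 19589073, had 97.8, 101 and 110.1 CPM in the controls and 79.2, 83.2 and 59.6 CPM after knockdown. The groups did not overlap, and here replicate 3 was the lowest of the knockdown libraries, the reverse of its place in *ALDH3B1*. The mean was 103 ± 6.35 CPM in ASO_CTRL and 74.0 ± 12.6 CPM in ASO_LINC#3 (SD, n = 3 in each group), with a fitted log2 fold change of −0.47 (standard error 0.15). In the controls *ALDH3A2* had 1.53, 1.08 and 1.5 times the reads of *ALDH3B1*, and after knockdown 3.59, 3.35 and 1.53 times.

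**Figure D1:**
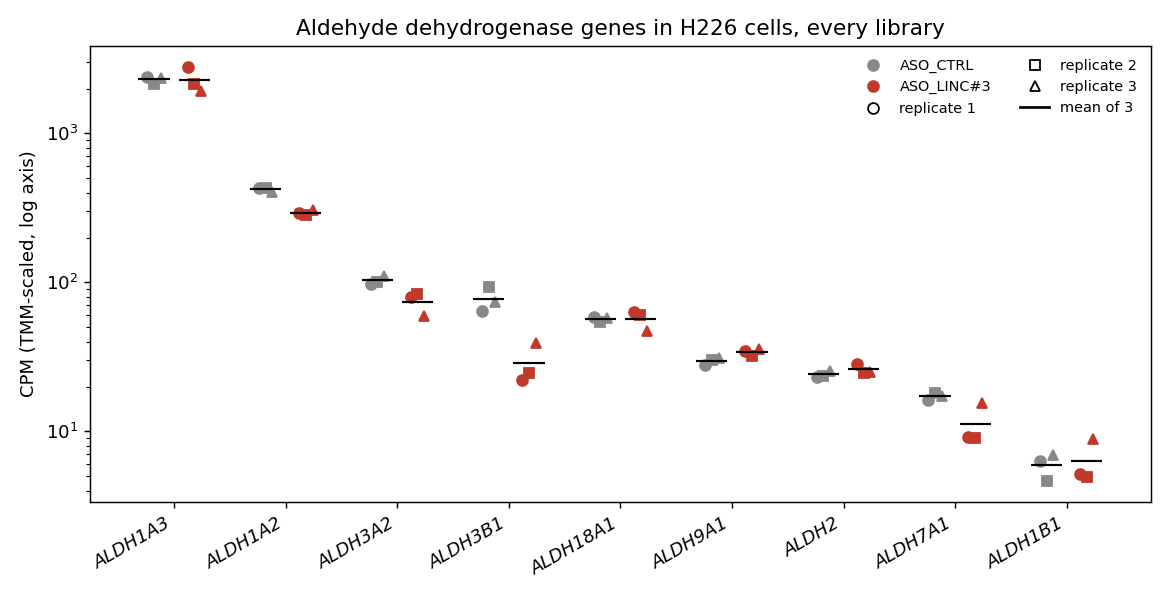
Level of each of the 9 aldehyde dehydrogenase genes in every library, in CPM after TMM scaling on a log axis, for ASO_CTRL (grey) and ASO_LINC#3 (red), with marker shape for the replicate and a line for the mean of 3 libraries. *ALDH1A2*, *ALDH3A2*, *ALDH3B1* and *ALDH7A1* have all red points below all grey points, and *ALDH1A3* spans 1939 to 2807 CPM after knockdown around a mean close to that of the controls.

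*ALDH2* and *ALDH1B1* are mitochondrial enzymes. ALDH2 is the main acetaldehyde dehydrogenase and also clears aldehydes from lipid peroxidation, and ALDH1B1 is its close relative with overlapping substrates. *ALDH2*, on chromosome 12 from 112204691 to 112255336, had 23.3, 23.4 and 25.5 CPM in the controls and 28.4, 24.8 and 25.2 CPM after knockdown. The groups overlapped, at means of 24.1 ± 1.22 and 26.1 ± 1.95 CPM (SD, n = 3 in each group) and a fitted log2 fold change of 0.12 (standard error 0.15). *ALDH1B1*, on chromosome 9 from 38392699 to 38398658, was the least abundant of the 9 per transcript length, with 6.33, 4.65 and 6.96 CPM in the controls and 5.14, 4.96 and 8.95 CPM after knockdown. These values rest on 27 to 73 reads per library. Its fitted log2 fold change of 0.01 (standard error 0.28) was −0.27 without ASO_LINC#3 replicate 3, the library with its highest level.

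*ALDH7A1* encodes antiquitin, which takes part in lysine breakdown and oxidises betaine aldehyde, and mutations in it cause pyridoxine-dependent epilepsy. It lies on the minus strand of chromosome 5 from 125866892 to 125931054. Its levels were 16.3, 18.2 and 17.3 CPM in the controls and 9.11, 9.07 and 15.5 CPM after knockdown. The groups did not overlap, but ASO_LINC#3 replicate 3 came within 1 CPM of the lowest control while replicates 1 and 2 were far below it. The means were 17.3 ± 0.972 and 11.2 ± 3.67 CPM (SD, n = 3 in each group), and the fitted log2 fold change was −0.66 (standard error 0.22) with all libraries and −0.92 without ASO_LINC#3 replicate 3. Its processed pseudogene *ALDH7A1P1*, elsewhere on chromosome 5 from 76586093 to 76587625, can share its reads, so the level of each is uncertain. The pseudogene had 4.04, 3.61 and 3.72 CPM in the controls and 1.76, 2.40 and 2.44 CPM after knockdown, lower in every knockdown library as well.

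*ALDH9A1* oxidises aminoaldehydes, among them an intermediate of carnitine synthesis and the aldehyde that yields GABA from putrescine. On the minus strand of chromosome 1 from 165631453 to 165667799, it had 28.0, 30.3 and 31.0 CPM in the controls and 34.5, 32 and 35.8 CPM after knockdown. All knockdown libraries were above all controls, by a margin of 1 CPM at the closest. The means were 29.8 ± 1.56 and 34.1 ± 1.93 CPM (SD, n = 3 in each group), and the fitted log2 fold change was 0.19 (standard error 0.14).

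*ALDH18A1* encodes pyrroline-5-carboxylate synthase, the mitochondrial enzyme that commits glutamate to proline and ornithine, and it reduces its substrate instead of oxidising an aldehyde. On the minus strand of chromosome 10 from 97365698 to 97416468, it had 58.2, 53.9 and 58.1 CPM in the controls and 63.2, 60.4 and 47.4 CPM after knockdown. Replicates 1 and 2 of the knockdown were above every control and replicate 3 was below every control. The means were 56.7 ± 2.47 and 57.0 ± 8.41 CPM (SD, n = 3 in each group), with a fitted log2 fold change of 0.01 (standard error 0.14).

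**Figure D2:**
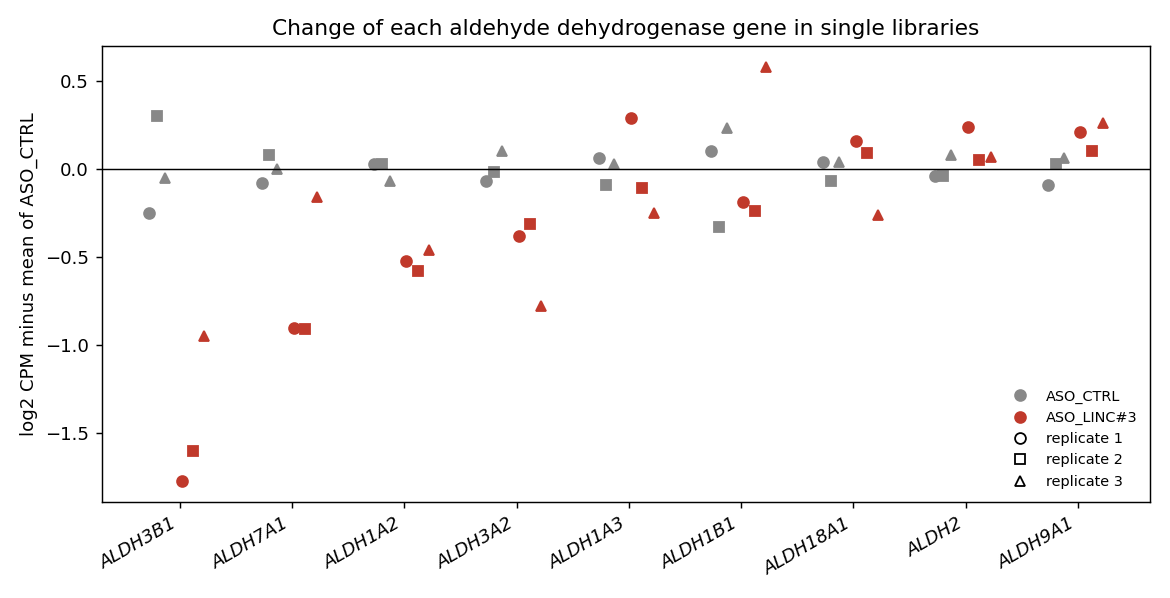
Change of each gene in every single library, as log2 CPM minus the mean of the 3 ASO_CTRL libraries, with ASO_CTRL in grey, ASO_LINC#3 in red and marker shape for the replicate. For *ALDH3B1* the knockdown libraries sit at −1.77, −1.60 and −0.95, and for *ALDH7A1* at −0.90, −0.91 and −0.16, whereas *ALDH1A2* has them together at −0.52, −0.58 and −0.46.

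Side by side, the 9 fitted log2 fold changes had a median of −0.01 and ranged from −1.44 for *ALDH3B1* to 0.19 for *ALDH9A1*, with 5 below 0 and 4 above. The median over all genes tested was 0.00. Calls required both an adjusted p-value below 0.01 by the quasi-likelihood test of edgeR and a log2 fold change above 0.5 or below −0.5. By this rule 7.54% of all genes tested were called, and 1 of the 9 genes was among them, *ALDH3B1*, a count from which nothing is read because the comparison was in view when the genes were chosen. The count was 0 without ASO_CTRL replicate 2, ASO_CTRL replicate 3 or ASO_LINC#3 replicate 1, and 3 without ASO_LINC#3 replicate 3. Over the 6 fits that omit 1 library, the log2 fold change of *ALDH3B1* ranged from −1.71 to −1.28, that of *ALDH1A2* from −0.56 to −0.49 and that of *ALDH7A1* from −0.92 to −0.52. ASO_LINC#3 replicate 3 also had the fewest reads, and its place among the knockdown libraries differed from gene to gene.

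Removal of the GC and length dependence of single libraries, an alternative added after the values were seen, brought the 3 knockdown libraries of *ALDH3B1* closer together, at −1.67, −1.44 and −1.27. The *ALDH3B1* transcript has a GC content of 60.6%, against 45.0% to 51.8% in the other genes. It also brought those of *ALDH3A2* closer, from −0.38, −0.31 and −0.78 to −0.49, −0.42 and −0.73, whereas those of *ALDH7A1* were at −1.02, −1.02 and −0.09 after it. Those of *ALDH1A2* moved further apart, from −0.52, −0.58 and −0.46 to −0.61, −0.66 and −0.46.

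Per length of transcript, the genes covered a wide range of levels. In the controls *ALDH1A3* stood at 664 ± 35.7 CPM per kb of canonical transcript and *ALDH1A2* at 124 ± 4.92 CPM per kb, followed by *ALDH3A2* at 27.8 ± 1.72, *ALDH3B1* at 27.4 ± 5.35, *ALDH18A1* at 16.9 ± 0.737 and *ALDH9A1* at 12.4 ± 0.652 (SD, n = 3). *ALDH7A1*, *ALDH2* and *ALDH1B1* came last, at 3.62 ± 0.204, 2.52 ± 0.128 and 1.97 ± 0.396 CPM per kb. Every pair of neighbours in this order was apart in the control libraries other than *ALDH3A2* and *ALDH3B1*, whose ranges overlapped. After knockdown *ALDH3B1* went from the fourth place to the sixth, at 10.2 ± 3.25 CPM per kb, below *ALDH18A1* at 17.0 ± 2.51 and *ALDH9A1* at 14.2 ± 0.805.

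These levels assume reads along the whole transcript, whereas the labels describe cDNA primed with oligo-dT, and they depend on the transcript taken. The canonical *ALDH2* transcript is 9561 nt long, so a shorter form would raise its level, and with the longest annotated transcript *ALDH3B1* falls to 13.1 CPM per kb in the controls and the fifth place. Of the summed level per kb of the 9 genes, *ALDH1A3* made up 75.3% ± 1.55 in ASO_CTRL and 80.7% ± 2.99 in ASO_LINC#3, and *ALDH1A2* 14.1% ± 0.837 and 10.8% ± 1.81 (SD, n = 3 in each group). The summed CPM of all 9 ranged from 2919 to 3122 in the controls and from 2476 to 3341 after knockdown. Without *ALDH1A3*, the other 8 summed to 725, 756 and 724 CPM in the controls and 535, 521 and 537 CPM after knockdown. *ALDH1A2* was the largest part of this sum, at means of 421 and 294 CPM. The means of *ALDH1B1*, *ALDH2*, *ALDH9A1* and *ALDH18A1* were not lower after knockdown.

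**Figure D3:**
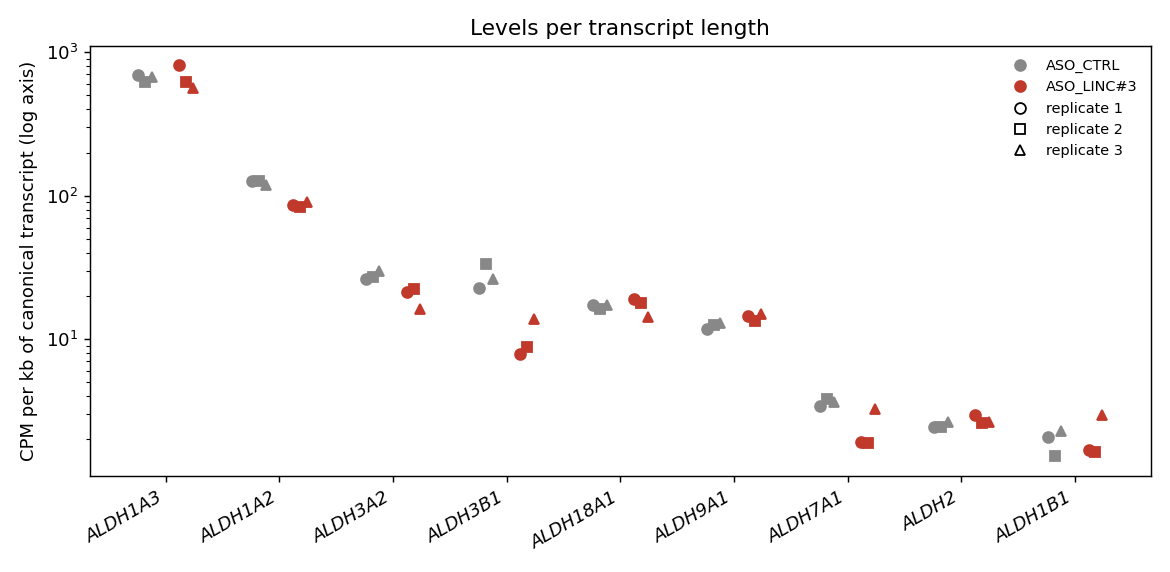
Level per transcript length of the 9 genes in every library, in CPM per kb of canonical GENCODE transcript on a log axis, with ASO_CTRL in grey, ASO_LINC#3 in red and marker shape for the replicate. *ALDH1A3* is highest at 664 CPM per kb in the controls, and *ALDH3A2* and *ALDH3B1* overlap in the controls and lie at 20.0 and 10.2 CPM per kb after knockdown.

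The rest of the family was looked at next, in a list of the 10 human ALDH genes outside the 9. *ALDH4A1*, *ALDH5A1*, *ALDH6A1*, *ALDH8A1* and *ALDH16A1* are in the table and all 5 were tested, while *ALDH1A1*, *ALDH1L1*, *ALDH1L2*, *ALDH3A1* and *ALDH3B2* were not analysed here. All 5 fitted log2 fold changes were below 0, with a median of −0.61 against 0.00 over all genes tested. Of the 5, 1 was called, *ALDH8A1*, an enzyme of the kynurenine route of tryptophan breakdown, where 2.63% of all genes tested were called lower. *ALDH8A1* had 7.0, 4.13 and 5.25 CPM in the controls and 1.76, 1.71 and 1.36 CPM after knockdown, and fell by 1.73 on the log2 scale (standard error 0.31, adjusted p = 0.00426 by the edgeR quasi-likelihood test). It rests on 5 to 12 reads in each knockdown library, and the call was lost without ASO_CTRL replicate 1 (adjusted p = 0.0197), ASO_CTRL replicate 3 (0.0212), ASO_LINC#3 replicate 1 (0.0230) or ASO_LINC#3 replicate 2 (0.0172), with log2 fold changes from −1.87 to −1.52 over all 6 such fits. The mitochondrial enzymes *ALDH6A1* of valine breakdown and *ALDH5A1* of GABA breakdown did not pass (log2 fold changes −0.76 and −0.61, adjusted p = 0.0482 and 0.0682), although the groups did not overlap in either.

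**Figure D4:**
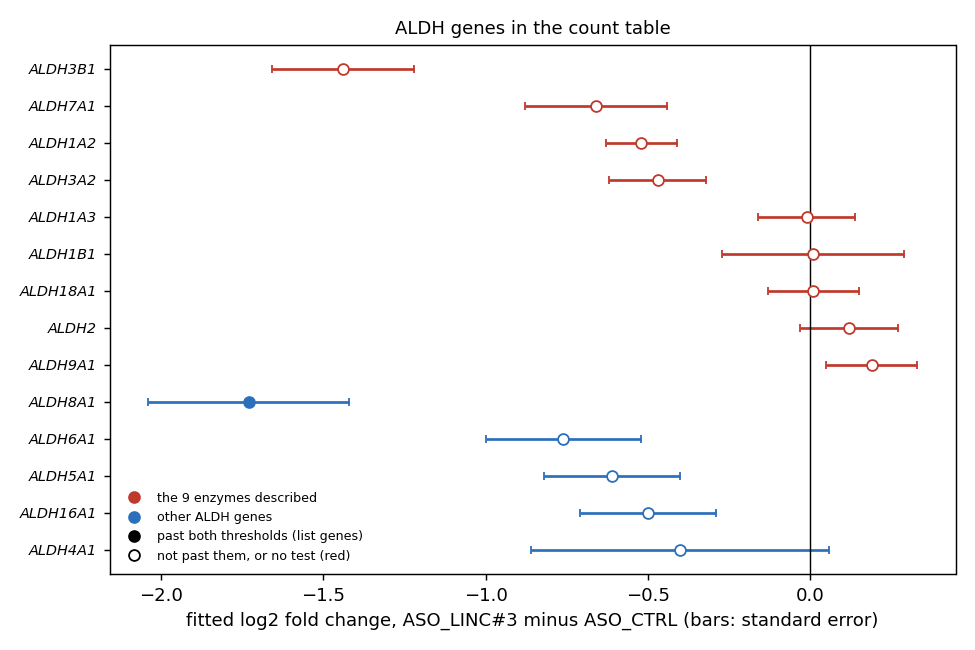
Fitted log2 fold change, ASO_LINC#3 minus ASO_CTRL, of the 9 genes described (red) and of the 5 other ALDH genes tested (blue), with bars for the standard error and a filled point where a gene of the other 5 is past both thresholds, the 9 being drawn open because they carry no test. The filled point is *ALDH8A1* at −1.73, all 5 blue points lie below 0, and *ALDH3B1* at −1.44 is the lowest red point.

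Around the step of *ALDH1A2* and *ALDH1A3*, the genes of retinoid transport, oxidation, binding, breakdown and reception were compared. Of 26 listed, 17 were in the table and tested, with a median log2 fold change of −0.10, and 2 were called, 1 higher and 1 lower (4.91% and 2.63% of all genes tested). *RDH10*, the dehydrogenase that supplies retinal from retinol, had 691, 578 and 633 CPM in the controls and 358, 336 and 312 CPM after knockdown. It fell by 0.92 on the log2 scale (standard error 0.12, adjusted p = 0.000786 by the edgeR quasi-likelihood test) and kept its call whichever library was left out. *RDH10* and *ALDH1A2* both had lower read levels in every knockdown library, whereas *ALDH1A3*, the more abundant enzyme of the ALDH1A step, overlapped between the groups. *RDH11* and *RDH14* overlapped as well (log2 fold changes −0.07 and −0.10), and *RDH13* was higher in every knockdown library without being called (0.79). These RDH genes other than *RDH10* were named after their values were seen.

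*CYP26A1*, the cytochrome P450 that degrades retinoic acid and a known target of its receptors, went the other way from *RDH10*. It had 9.43, 8.60 and 10.5 CPM in the controls and 30.4, 28.6 and 14.4 CPM after knockdown, a rise of 1.38 on the log2 scale (standard error 0.26, adjusted p = 0.00520 by the edgeR quasi-likelihood test). Leaving out any library other than ASO_LINC#3 replicate 3 ended this call, with adjusted p-values from 0.0184 to 0.0306, and without that replicate the log2 fold change was 1.62.

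Among those not called, *STRA6*, a retinol transporter, and *DHRS3*, which turns retinal back into retinol, were chosen for naming after their values were seen. *STRA6* had 2.83, 2.24 and 5.25 CPM in the controls and 7.94, 9.41 and 13.8 CPM after knockdown (log2 fold change 1.49, adjusted p = 0.0116 by the edgeR quasi-likelihood test). *DHRS3* had 229, 246 and 252 CPM in the controls and 80.2, 63.3 and 193 CPM after knockdown (log2 fold change −1.12, adjusted p = 0.0387 from the same edgeR test). *RARRES1* and *RARRES3*, retinoic acid receptor responder genes by name, were lower in every knockdown library, unlike *CYP26A1*. Their log2 fold changes were −0.72 and −1.32 (adjusted p = 0.0112 and 0.0127 by edgeR), and they too were named after their values were seen. Of the 17 genes tested, 6 had log2 fold changes above 0 and 11 below. The number of called genes in this list depended on the fit, with 6 by DESeq2, 6 after removal of the GC and length trend and 7 without ASO_LINC#3 replicate 3.

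**Figure D5:**
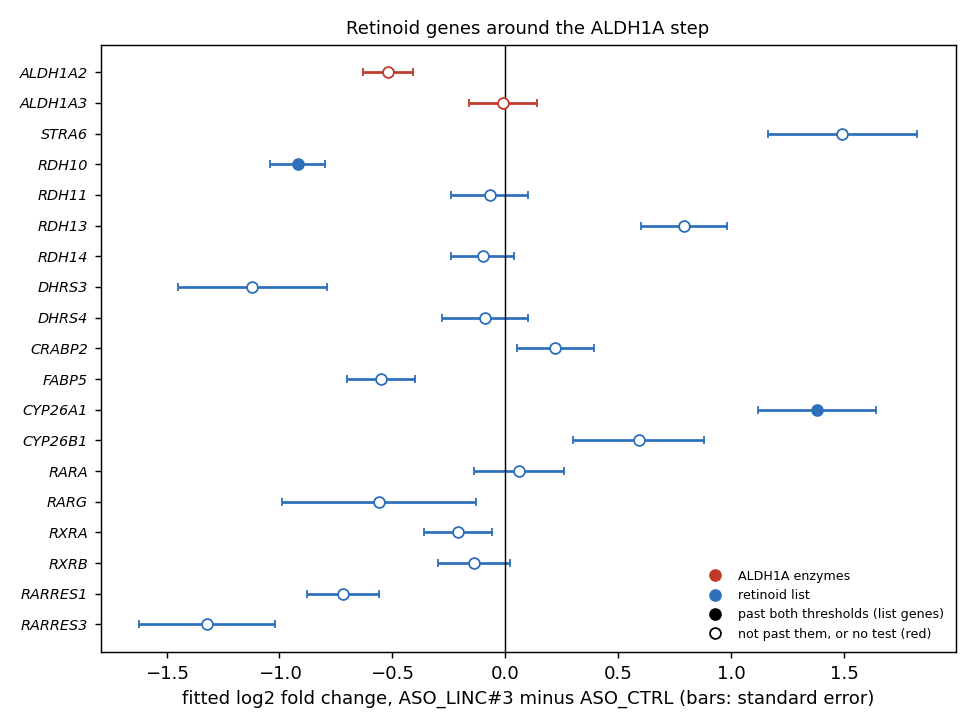
Fitted log2 fold change, ASO_LINC#3 minus ASO_CTRL, of *ALDH1A2* and *ALDH1A3* (red) and of the 17 tested genes of retinoid metabolism and signalling (blue), with bars for the standard error and filled points for blue genes past both thresholds, the red being drawn open because they carry no test. *RDH10* at −0.92 and *CYP26A1* at 1.38 are the filled points, on opposite sides of 0.

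Other enzymes that handle aldehydes, the alcohol dehydrogenases, aldo-keto and carbonyl reductases and glyoxalases, gave no call. Of 25 listed, 18 were in the table and 13 passed the filter on low counts, with a median log2 fold change of −0.13. In edgeR's quasi-likelihood test 0 of the 13 were called, where 7.54% of all genes tested were. An unadjusted p-value below 0.05 was seen in 5, and nothing is read from this, since the share over all genes was not worked out. DESeq2 and limma-voom called 0 of the list as well, whereas 3 were called without ASO_LINC#3 replicate 3. The most abundant were *ADH5*, the glutathione-dependent formaldehyde dehydrogenase, at 167 ± 1.04 and 139 ± 3.64 CPM (SD, n = 3 in each group), and *AKR1B1*, aldose reductase, at 129.8 ± 13.1 and 101 ± 17.3 CPM. The *ADH5* libraries did not overlap between the groups and those of *AKR1B1* did.

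For the proline step of *ALDH18A1*, 16 of 18 listed genes of proline, ornithine and glutamine metabolism were tested, with a median log2 fold change of 0.28, and 3 were called, 2 higher and 1 lower, of which the 2 higher are described (4.91% of all genes tested were called higher and 2.63% lower). *ASNS*, asparagine synthetase, which uses glutamine but does not make proline, rose by 1.25 on the log2 scale (standard error 0.15, adjusted p = 0.000448 by the edgeR quasi-likelihood test). *ODC1*, which turns ornithine into putrescine, went from 281 ± 24.9 to 557 ± 61.6 CPM (SD, n = 3 in each group), a rise of 0.99 on the log2 scale (adjusted p = 0.000768 from edgeR). *ASNS* and *ODC1* kept their calls whichever library was left out. Without ASO_LINC#3 replicate 3, 6 genes of the list were called. *PYCR1* and *OAT*, enzymes next to *ALDH18A1* on the way to proline and ornithine, were not called (log2 fold changes −0.24 and 0.13), and they too were chosen for naming after their values were seen.

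In the list of enzymes and transporters that supply fatty aldehydes, aminoaldehydes and choline, 22 of 26 were in the table and 17 were tested, with a median log2 fold change of 0.03. Of these, 2 were called, both higher, where 4.91% of all genes tested were called higher. *LOX*, the secreted amine oxidase that makes aldehydes on collagen lysines, had 309, 231 and 261 CPM in the controls and 1488, 1541 and 1141 CPM after knockdown, a rise of 2.38 on the log2 scale (standard error 0.16, adjusted p = 1.42e-05 by the edgeR quasi-likelihood test). *SAT1*, the polyamine acetyltransferase, rose to 345 ± 51.7 CPM from 173 ± 18.3 CPM (SD, n = 3 in each group), by 1.00 on the log2 scale (adjusted p = 0.00140 from edgeR). *LOX* kept its call whichever library was left out, whereas *SAT1* lost it without ASO_CTRL replicate 3 (adjusted p = 0.0112) or ASO_LINC#3 replicate 1 (0.0107). The list had 1 call without either of these libraries, 4 without ASO_LINC#3 replicate 3 and 7 after removal of the GC and length trend.

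The genes whose pattern over the 6 libraries was most like that of *ALDH3B1* were *AC138783.12*, *MIF4GD* and *LYPD1*. The root-mean-square difference of their log2 CPM, each centred on its control mean, from that of *ALDH3B1* was 0.0790, 0.134 and 0.167, among 10220 other genes with a mean of at least 50 reads. *AC138783.12* had 96.4, 141 and 105 CPM in the controls and 31.9, 33.2 and 61.8 CPM after knockdown, with the same order of the libraries within each group as *ALDH3B1*. The genes most like *ALDH9A1*, the gene with the largest increase among the 9, were *ZBTB7A*, *CBR1* and *PNMA1*, at differences of 0.0348, 0.0373 and 0.0446. *CBR1*, carbonyl reductase 1, had 88.4, 97.4 and 99.3 CPM in the controls and 106, 103 and 109 CPM after knockdown. Likeness over 6 libraries that share 1 contrast says nothing of shared function or control.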

How the data were processed

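RNA was measured in 6 H226 libraries, 3 each of ASO_CTRL and ASO_LINC#3, grouped by the sample labels. Single-end reads were aligned with STAR (genome build hg19), and the counts per gene that the authors deposited are raw, with no normalization. The counting tool, annotation and strand setting are not given in the sources used here, so reads of genes overlapping on opposite strands cannot be told apart. BJ cells are named where the study describes its RNA-seq methods, but the labels name H226. Reads assigned to no gene were left out. They were 24.8% to 26.3% of each ASO_CTRL library and 27.9% to 28.1% of each ASO_LINC#3 library, so the groups did not overlap in this share.

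Counts were analysed in R 4.3.3 with edgeR 4.0.16 (filterByExpr, TMM, quasi-likelihood test without a block, Benjamini-Hochberg adjustment over all 14660 genes tested). Standard errors are the log2 fold change over the root of its F. Changes of single libraries use log2 CPM with a prior count of 2. Alternatives were DESeq2 1.42.0, limma-voom (limma 3.58.1), RLE or no scaling factors, other filters, an adjusted p-value of 0.05, a replicate block and leaving out each library. Removal of GC and length trends (splines of 5 degrees of freedom, 81.6% of the genes tested) was added after seeing the data. The fits were tested on simulated data.

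The members and gene lists were chosen with earlier results of these data known. Named were all 9 members, in each list the called genes or else the 2 most abundant, and the 3 genes most like the members with the largest increase and decrease. Results of some listed genes are not reported here. For 1 gene, the smallest two-sided p of an exact permutation test in this design is 0.1. Counts of libraries of 1 group differed by more than sampling noise, so none was treated as a second deposit of another, which does not show separate cultures. The chi-square per degree of freedom was 2.50 for ASO_LINC replicates 1 and 2 and 6.94 to 14.0 for the other pairs. Positions and lengths are from GENCODE lifted to GRCh37, which need not be the authors' annotation. Promoters are from RefSeq on GRCh38.p14.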

Additional observations from a re-analysis of the deposited data

How the results depend on the processing

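The log2 fold changes of the 9 ALDH genes moved by less than the spread between replicates in all 126 combinations of a gene and an alternative. Those near 0 (*ALDH1A3*, *ALDH1B1* and *ALDH18A1*) changed sign in some. Leaving out 1 of 3 libraries can hardly shift a group mean by more than this spread. For those fits the comparison therefore says little about stability, least of all for genes with a wide spread. *ALDH3B1* stayed between −1.71 and −1.28 and *ALDH1A2* between −0.56 and −0.49 when each library was left out. With the 6 fits that each left out 1 library, called genes numbered 359 (without ASO_CTRL replicate 3) to 2616 (without ASO_LINC#3 replicate 3) over all genes, 0 to 1 among the other ALDH genes, 1 to 7 in the retinoid list, 0 to 3 among the other aldehyde-handling enzymes, 2 to 6 in the proline list and 1 to 4 in the list of fatty aldehyde, amine and choline sources. At an adjusted p-value of 0.05 the counts in this order were 2465, 2, 8, 2, 4 and 6. At least 10 counts in every library left 0 of the other ALDH genes called. DESeq2 called 6 retinoid genes and 1597 genes in all, with 963 higher and 634 lower. Removal of the GC and length trend gave 6 in the retinoid list, 7 in the last list and 1605 in all, with 901 higher and 704 lower against 720 and 386 before it.

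With the replicate number as a block, 656 genes were called in all, and 1, 3, 0, 2 and 2 in the lists in the same order. Deviations of same-numbered libraries from their group means correlated at 0.059, −0.149 and −0.18 across genes, and of the controls replicate 1 alone correlated best with its own number. Deviations within a group cancel out, so these correlations depend on one another and cannot show whether same-numbered libraries were paired. Under the block *CYP26A1* (adjusted p = 0.0106 from edgeR) was no longer called. With 27 to 73 reads per library for *ALDH1B1*, and 5 to 12 in the knockdown libraries for *ALDH8A1*, depth limits what these values show.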
